A study of Mus musculus with 16 samples.

Results

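The 10 genes studied here belong to hepatic de novo lipogenesis and were measured by bulk RNA sequencing of mouse liver. They are Srebf1, which encodes the transcription factors SREBP-1a and SREBP-1c, and Thrsp, Fasn, Acaca, Acacb, Acly, Acss2, Me1, Slc25a1 and Pnpla3. Each was found by its exact gene name, and the 10 names gave 10 of the 25803 genes of the joined count table. Pnpla3 fell below the filter on low counts, so 9 of the 10 were among the 14488 genes tested. The livers came from male mice fed a high-fat diet (HFD) for 12 weeks, which all 4 groups share. Fasted control mice and fasted mice with liver knockout of Cpt1a (LKO) were killed after a 16 h fast. Refed control and refed LKO mice had the same fast and then 6 h of refeeding. Each group had 4 libraries. The series text also calls the controls WT. The age of the mice, the strain, the Cre driver and the alleles of either genotype are not given in the sources used here, and the labels do not tie a library to an animal, so p-values measure the spread between these libraries.

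De novo lipogenesis turns carbohydrate carbon into fatty acids in the cytosol. Citrate leaves the mitochondrion and is cleaved to acetyl-CoA, the acetyl-CoA is carboxylated to malonyl-CoA, and fatty acid synthase joins these units with reducing power from NADPH. In liver, insulin and feeding raise SREBP-1c, a membrane-bound precursor that is carried from the endoplasmic reticulum by SCAP, cut by proteases and then activates the enzyme genes together with partners such as NF-Y and Sp1. Malonyl-CoA also inhibits CPT1A, the enzyme encoded by the targeted gene, and so ties synthesis of fat to its oxidation.

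Promoter sequences are shown because these genes are textbook examples of joint control by SREBP-1 with NF-Y and Sp1, and because Srebf1, Thrsp, Fasn, Acly and Acaca were each called higher on refeeding in both genotypes. Windows with matches are printed for the first 4 of these. The window available for Acaca, at a start inside the gene, had none. The RefSeq promoter table for build GRCm38.p6 held 13 start sites for the 10 genes, of which Srebf1 had 3. The windows are the 250 bases before a start, 5′ to 3′ on the strand of the gene (minus for all 4), with matches to the NF-Y motif CCAAT and to the GC box GGGCGG, on either strand, in capitals. They lie at chr11:60210472-60210721 (the start of Srebf1 farthest downstream), chr7:97417551-97417800, chr11:120824548-120824797 and chr11:100528001-100528250 in that build. The Srebf1 window printed is the only one of its 3 with both motifs. The window farthest upstream held 1 CCAAT and 0 GC boxes, and the middle window 0 CCAAT and 2 GC boxes.
Srebf1: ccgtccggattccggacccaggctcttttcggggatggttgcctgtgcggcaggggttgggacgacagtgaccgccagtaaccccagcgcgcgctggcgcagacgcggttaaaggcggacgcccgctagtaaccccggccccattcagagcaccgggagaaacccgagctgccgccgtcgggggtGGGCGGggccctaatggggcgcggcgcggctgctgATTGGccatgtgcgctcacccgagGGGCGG
Thrsp: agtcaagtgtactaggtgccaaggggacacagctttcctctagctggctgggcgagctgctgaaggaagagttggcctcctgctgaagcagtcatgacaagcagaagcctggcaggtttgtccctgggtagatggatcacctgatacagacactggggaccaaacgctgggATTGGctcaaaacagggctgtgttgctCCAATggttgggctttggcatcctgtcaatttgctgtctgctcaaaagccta
Fasn: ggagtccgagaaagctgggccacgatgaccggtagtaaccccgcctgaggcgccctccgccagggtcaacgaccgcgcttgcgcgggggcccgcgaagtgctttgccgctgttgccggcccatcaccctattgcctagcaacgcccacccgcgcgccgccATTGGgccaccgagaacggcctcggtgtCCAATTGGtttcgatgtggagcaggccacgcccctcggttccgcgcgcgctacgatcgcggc
Acly: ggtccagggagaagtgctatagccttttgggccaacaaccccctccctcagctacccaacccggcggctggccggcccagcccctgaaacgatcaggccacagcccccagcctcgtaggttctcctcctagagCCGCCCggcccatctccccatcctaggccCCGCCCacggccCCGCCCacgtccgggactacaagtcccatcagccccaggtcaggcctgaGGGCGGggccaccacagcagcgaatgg

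CCAAT stood in 9 of the 13 windows, covering 8 of the 10 genes, against 33.8% of all 32851 windows of that length. In Fasn it matched 3 times, at 90 to 86, 62 to 58 and 59 to 55 bases before the start, the last pair overlapping on opposite strands, and in Thrsp 2 times. GGGCGG stood in 7 of the 13 windows (6 genes) against 32.7% of all windows, with 4 matches each in Acly, Acss2 and Slc25a1. The E-box CACGTG, a motif of USF factors, matched in Slc25a1 alone (1 of 13 windows against 6.02%). The sterol regulatory element searched as TCACCCCAC matched 0 of the 13 windows against 0.496% of all, and its looser form TCACNCCAC also 0 against 1.05%. The only window of Acaca (chr11:84195188-84195437, 39.2% GC) held 0 matches to any of the 5 motifs. It lay inside the gene, far downstream of the 5′ end of the gene model, so the promoter at that end was not searched. The window of Acacb, which fell on refeeding in LKO, held CCAAT. These are matches of letters in a fixed window and show neither binding nor its absence.

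Library totals ran from 14721601 to 24618230 counts. Cpt1a stood between 319 and 619.7 CPM (counts per 1e6 counts of the TMM-scaled library total) in the 8 control libraries and between 39.9 and 126 CPM in the 8 LKO libraries. The 8 hepatocyte markers summed to 82758 to 90482 CPM in fasted control and 68815 to 77895 in fasted LKO, and to 79855 to 95622 and 70956 to 84547 in the refed groups. Alb was the largest part of that sum (median 47857 CPM in fasted control and 39054 in fasted LKO). In fasted LKO 6 of the 8 had a fold change below 0 and 2 above it, and 2 were called, both lower. In refed LKO 7 lay below 0 and 1 above, with 0 called. Apoa1 had higher medians in LKO in both states. The 5 adipocyte markers summed to 9.81 to 58.1 CPM (control) and 0.448 to 9.63 (LKO) when fasted, and to 2.50 to 33.1 and 0.563 to 3.46 when refed. Nearly all of that was Cfd: Adipoq, which defines adipocytes, was at or below 0.447 CPM in every library, and Lep was at 0 in 3 of the 4 groups. The 6 lymphocyte markers summed to 3.54 to 7.20 CPM in fasted control and 14.2 to 33.3 in fasted LKO, and to 3.66 to 5.24 and 16.7 to 38.7 in the refed groups. The part of hepatocyte and lymphocyte content in the results below was not tested. In bulk RNA, fewer cells of a type and less RNA per cell cannot be told apart.

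Srebf1 (ENSMUSG00000020538, chromosome 11 from 60089915 to 60113407, minus strand, 5634 bases of gene model; gene coordinates are those of the deposited tables, and mm39 is the build in the submitters' processing notes) was far lower in fasted LKO than in fasted control and rose on refeeding in both genotypes. The fasted libraries are S40 to S43 for control and S44 to S47 for LKO, the refed ones S48 to S51 for control and S52 to S55 for LKO, and values follow that order throughout. Fasted control gave 197, 146, 174 and 208 CPM of Srebf1 and fasted LKO 36.4, 45.9, 35.1 and 34.6 CPM. Refed control gave 559.9, 422, 302 and 213 CPM and refed LKO 373, 168, 183 and 203 CPM. Every fasted LKO library lay far below every other library, while the refed genotypes overlapped. The fasted means were 181 ± 27.2 against 37.99 ± 5.31 CPM (SD, n = 4), a 4.77-fold lower fitted level in LKO (log2 fold change −2.25, SE 0.28, adjusted p = 2.38e-04, from the edgeR quasi-likelihood fit, Benjamini-Hochberg over all genes, as for every adjusted p with no other source named). Refed LKO stood at 232 ± 95.3 against 374 ± 151 CPM in refed control and did not pass (−0.69, SE 0.27, adjusted p = 0.169), though it was called without S52 (log2 −1.02, adjusted p = 0.0327). Refeeding raised Srebf1 6.11-fold in LKO (log2 2.61, SE 0.28, adjusted p = 3.32e-05) and 2.06-fold in control (log2 1.05, SE 0.27, adjusted p = 0.0159), and the control rise was no longer called without S48 (log2 0.79, adjusted p = 0.0615). The counts cover the whole gene, so SREBP-1a and SREBP-1c transcripts are summed, and the gene overlaps Rai1 on the opposite strand (at most 20.5 CPM). Whether the counting used strand is not given in the sources used here.

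Thrsp (ENSMUSG00000035686, chromosome 7 from 97062145 to 97066937, minus strand, 2189 bases of gene model), a small nuclear and cytosolic protein induced with lipogenesis, had the largest genotype differences among the 9 tested genes. The fasted control libraries held 90.3, 179, 224 and 109 CPM and the fasted LKO libraries 7.19, 21.7, 7.79 and 12.6 CPM. Refed control libraries ranged widely, at 431, 1104, 130.4 and 367 CPM, against 168, 209, 104 and 159.7 CPM in refed LKO. The fasted groups were far apart, the refed groups overlapped, and within refed control S49 was 8.46 times S50. The fasted genotype difference was log2 −3.61, SE 0.55, adjusted p = 7.53e-04. In the refed state Thrsp was at 160.0 ± 43.2 against 508 ± 418 CPM (SD, n = 4) and missed the threshold (−1.67, SE 0.50, adjusted p = 0.0723). It was called there without S50 (adjusted p = 0.0278) and by DESeq2 (0.0490). Refeeding raised it 13.01-fold in LKO (log2 3.70, SE 0.55, adjusted p = 3.13e-04) and 3.38-fold in control (log2 1.76, SE 0.50, adjusted p = 0.0254). The control rise was lost without S40 (adjusted p = 0.0850), S43 (0.0737) or S49 (0.113, log2 1.04) and with only the 2 groups compared (0.0536).

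**Figure D1:**
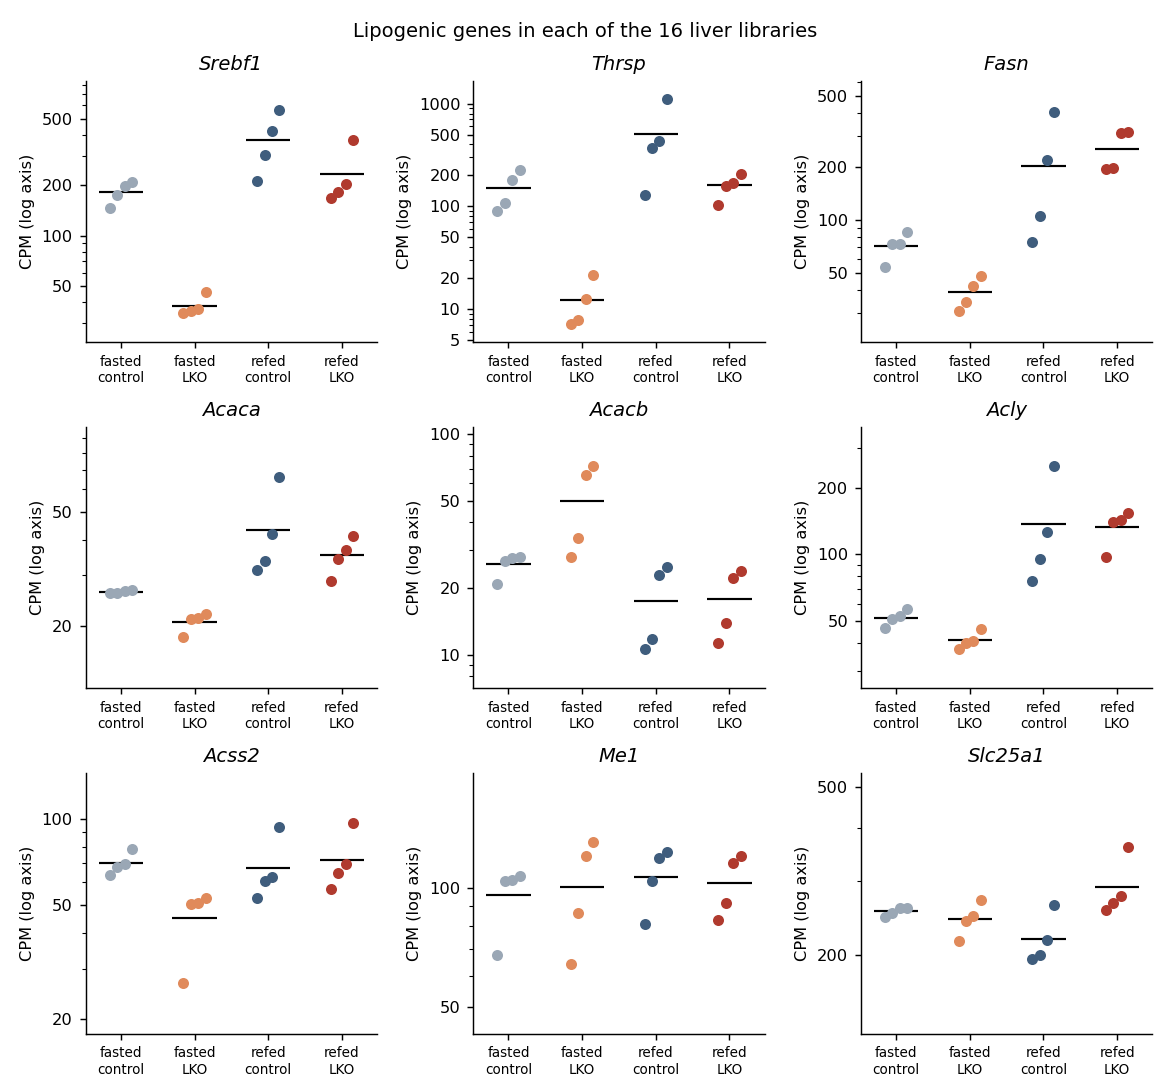
CPM on log axes of the 9 tested genes in the 16 libraries, 1 panel a gene and 1 column a group, where points are libraries sorted by value and black lines are group means. The fasted LKO points of Srebf1 (34.6 to 45.9 CPM) and Thrsp (7.19 to 21.7 CPM) lie below all others, and the mean of Acacb is highest in fasted LKO.

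Acetyl-CoA for lipogenesis comes from citrate, through the carrier Slc25a1 and the lyase Acly, or from acetate, through the synthetase Acss2. Acly (ENSMUSG00000020917, chromosome 11 from 100367179 to 100418826, minus strand, 5279 bases of gene model) stood at 46.7, 56.7, 51.3 and 52.8 CPM in fasted control and 37.6, 46.2, 40.6 and 39.7 CPM in fasted LKO. After refeeding it stood at 126, 250.2, 95.4 and 75.8 CPM in control and 139.9, 143, 97.4 and 154 CPM in LKO. Both refed groups lay wholly above both fasted groups. Acly rose 2.64-fold on refeeding in control (log2 1.40, SE 0.27, adjusted p = 0.00306) and 3.26-fold in LKO (log2 1.70, SE 0.27, adjusted p = 4.89e-04), and both calls held in each of the 23 alternatives. The fasted LKO libraries all lay below the fasted controls, at 41.01 ± 3.66 against 51.9 ± 4.13 CPM (SD, n = 4), a difference that did not pass (−0.34, SE 0.26, adjusted p = 0.452) except with only the fasted groups in the fit (0.0457). Refed means were 133 ± 24.8 for LKO and 137 ± 78.3 CPM for control (−0.036, SE 0.26, adjusted p = 0.967), and the sign turned without S49 (log2 0.43).

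Acss2 (ENSMUSG00000027605, chromosome 2 from 155359868 to 155427644, plus strand, 10163 bases of gene model), which activates acetate in the cytosol, was at 63.9, 78.7, 69.6 and 67.7 CPM in fasted control and 26.6, 52.8, 50.6 and 50.7 CPM in fasted LKO. Refed control held 62.6, 93.8, 52.9 and 60.8 CPM and refed LKO 56.8, 96.9, 64.9 and 69.6 CPM. The fasted LKO libraries were the low ones, S44 most of all, and the other 3 groups overlapped. The fasted difference (log2 −0.63, SE 0.21, adjusted p = 0.0626) missed the threshold. It was called with DESeq2 (0.0300), limma-voom (0.0473) and without S49 (0.0379) or S53 (0.0495). Refeeding raised Acss2 1.60-fold in LKO (log2 0.67, SE 0.21, adjusted p = 0.0365) and left it at log2 −0.052 (SE 0.21, adjusted p = 0.898) in control. The LKO rise was lost without S44 (0.0921), S53 (0.130) or S55 (0.0656) and with only the 2 groups compared (0.0659). Acss2 overlaps Gss on the opposite strand, which reached 112 CPM, so reads in the shared stretch may count for either if strand was not used.

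Slc25a1 (ENSMUSG00000003528, chromosome 16 from 17743087 to 17746083, minus strand, 2164 bases of gene model), the citrate carrier of the inner mitochondrial membrane, had no contrast that passed. Fasted means were 254 ± 5.94 CPM for control and 244 ± 22.4 for LKO, and refed means 219 ± 30.7 and 290.1 ± 48.1 (SD, n = 4). The nearest to the threshold was the refed genotype difference (log2 0.40, SE 0.12, adjusted p = 0.0613), where 277, 361, 256 and 266 CPM in LKO stood against 217, 263, 196 and 201 CPM in control. That difference was called without S49 (0.0256), the highest refed control, and by DESeq2 (0.0210).

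Acetyl-CoA carboxylase makes malonyl-CoA in 2 forms: Acaca encodes the cytosolic enzyme ACC1, which feeds fatty acid synthesis, and Acacb the ACC2 of the mitochondrial surface, whose malonyl-CoA restrains CPT1. Acaca (ENSMUSG00000020532, chromosome 11 from 84020498 to 84292477, plus strand, 17074 bases of gene model) was at 26.1, 26.8, 26.5 and 26.01 CPM in fasted control, the smallest relative spread of any of the 9 genes in any group, and at 21.3, 18.3, 21.1 and 22.1 CPM in fasted LKO. It rose to 41.9, 65.8, 31.3 and 33.7 CPM in refed control and 34.1, 41.3, 28.7 and 36.9 CPM in refed LKO. Refed libraries lay above fasted ones in both genotypes, by 1.64-fold in control (log2 0.71, SE 0.18, adjusted p = 0.0142) and 1.70-fold in LKO (log2 0.77, SE 0.18, adjusted p = 0.00726), and both calls held in each of the 23 alternatives. Without S49, the highest refed control, the control rise was log2 0.43 (adjusted p = 0.0280). The genotype difference did not pass in the fasted (−0.35, SE 0.18, adjusted p = 0.228) or the refed state (−0.29, SE 0.18, adjusted p = 0.402), and the fasted one was called with only the fasted groups in the fit (0.0269).

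Acacb (ENSMUSG00000042010, chromosome 5 from 114284596 to 114388822, plus strand, 9632 bases of gene model) ran the other way. It stood at 27.8, 26.7, 27.6 and 20.9 CPM in fasted control and 72.1, 27.8, 65.5 and 33.8 CPM in fasted LKO, where S44 and S46 were high and S45 and S47 closer to control. S44 also had the highest cholangiocyte marker sum of all libraries (45.9 CPM, against 7.34 in S46) and the lowest hepatocyte sum (68815 CPM). The part of these in its Acacb level was not tested. Refed control held 10.6, 22.9, 11.8 and 25.1 CPM and refed LKO 11.3, 22.4, 23.9 and 13.9 CPM. In LKO, refeeding lowered Acacb 2.80-fold (log2 −1.49, SE 0.33, adjusted p = 0.00552), with no overlap, and the call held in each of the 23 alternatives. In control the refeeding change was log2 −0.55 (SE 0.33, adjusted p = 0.284). The higher fasted LKO level missed the threshold (log2 0.95, SE 0.33, adjusted p = 0.0680). It passed with DESeq2 (0.0268) and without S45 (0.0264) or S47 (0.0457).

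The balance of the 2 carboxylase genes was then measured within each library, as the ratio of Acacb to Acaca counts per kb of gene model, which needs no scaling between libraries. The ratio was 1.89, 1.76, 1.84 and 1.43 in fasted control and 6.00, 2.69, 5.49 and 2.71 in fasted LKO. It was 0.449, 0.619, 0.669 and 1.32 in refed control and 0.587, 0.961, 1.48 and 0.670 in refed LKO. Acacb exceeded Acaca per kb in all 8 fasted libraries, most in fasted LKO, and in 2 of the 8 refed ones. That excess depends on the gene model lengths. Without division by length the mean log2 ratio was −0.043 in fasted control and 1.15 in fasted LKO, while differences between groups stayed the same. The mean log2 ratio was 1.98 ± 0.63 in fasted LKO against 0.78 ± 0.18 in fasted control (SD, n = 4), a difference of 1.19. Refeeding lowered it by 2.19 in LKO and by 1.29 in control. In each of these 3 comparisons the groups did not overlap (exact two-sided permutation test, p = 0.0286, the smallest that 4 against 4 libraries allow, and 0.0381 after Benjamini-Hochberg adjustment over the 4 ratio tests). The refed genotypes differed by 0.30 (exact permutation p = 0.514).

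**Figure D2:**
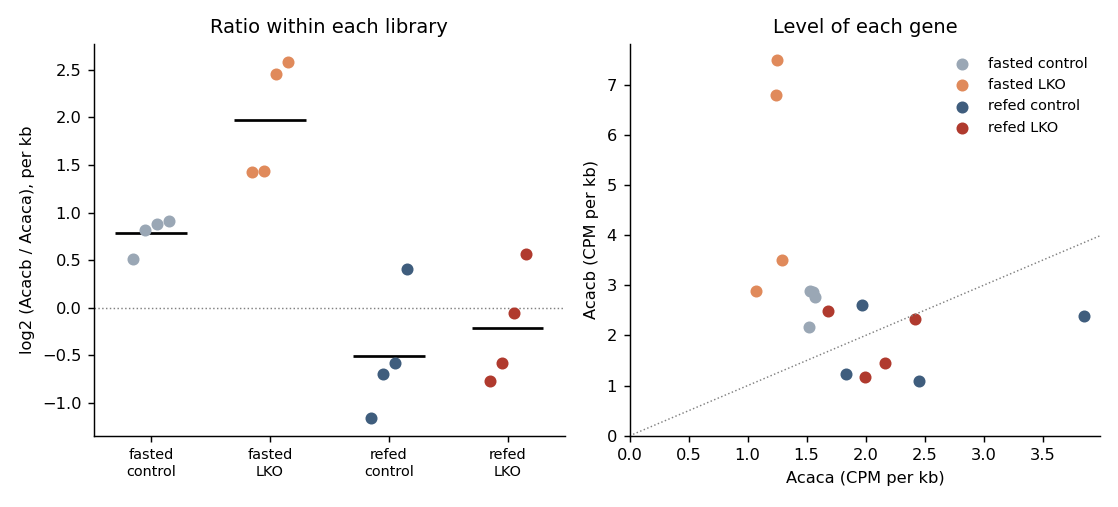
Left, log2 ratio of Acacb to Acaca per kb in each library (points) with group means (lines), where 0 marks equal levels; right, the level of each gene in CPM per kb, with the dotted line at equality. Fasted LKO libraries have the highest ratios (2.69 to 6.00 on the linear scale) and the highest mean Acacb.

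Fasn (ENSMUSG00000025153, chromosome 11 from 120696672 to 120715373, minus strand, 10947 bases of gene model) encodes fatty acid synthase, the multi-domain enzyme that builds palmitate. It stood at 54.3, 85.9, 73.05 and 73.1 CPM in fasted control and 30.6, 42.4, 34.4 and 48.5 CPM in fasted LKO. After refeeding it stood at 218, 406, 105 and 75.1 CPM in control and 196, 312, 195 and 310.1 CPM in LKO. All refed LKO libraries were high, whereas refed control ran from a level inside the fasted range (S51) to the highest of all (S49). Refeeding raised Fasn 6.51-fold in LKO (log2 2.70, SE 0.40, adjusted p = 3.08e-04) and 2.81-fold in control (log2 1.49, SE 0.38, adjusted p = 0.0157). The control rise was lost without S40 (adjusted p = 0.0567) or S49 (0.0575, log2 0.89). In the fasted state LKO lay wholly below control (38.97 ± 8.01 against 71.6 ± 13.03 CPM; SD, n = 4), yet the difference did not pass in the fit that shares the spread of all 4 groups (−0.88, SE 0.38, adjusted p = 0.149). It passed with only the 2 fasted groups (0.0134) and without S49 (0.0477). The refed genotypes overlapped (0.33, SE 0.37, adjusted p = 0.694).

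Me1 (ENSMUSG00000032418, chromosome 9 from 86463424 to 86578006, minus strand, 3848 bases of gene model), the cytosolic malic enzyme that supplies NADPH, showed no change that passed. Its group means were 96.1 ± 19.1, 100.4 ± 30.6, 107 ± 18.9 and 103 ± 18.3 CPM in fasted control, fasted LKO, refed control and refed LKO (SD, n = 4). The 4 group contrasts lay between log2 −0.058 and 0.15, each with an SE of 0.21, which leaves room for moderate changes.

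Pnpla3 (ENSMUSG00000041653, chromosome 15 from 84052038 to 84071437, plus strand, 1548 bases of gene model), a lipid droplet lipase family member known as a target of SREBP-1c, was all but undetected. It had 1, 4, 0 and 2 counts in the fasted control libraries, 5, 2, 1 and 5 in fasted LKO, 8, 3, 2 and 0 in refed control and 4, 1, 6 and 2 in refed LKO, 46 counts over 16 libraries. At this depth no difference between groups was detectable, and no fold change is given.

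**Figure D3:**
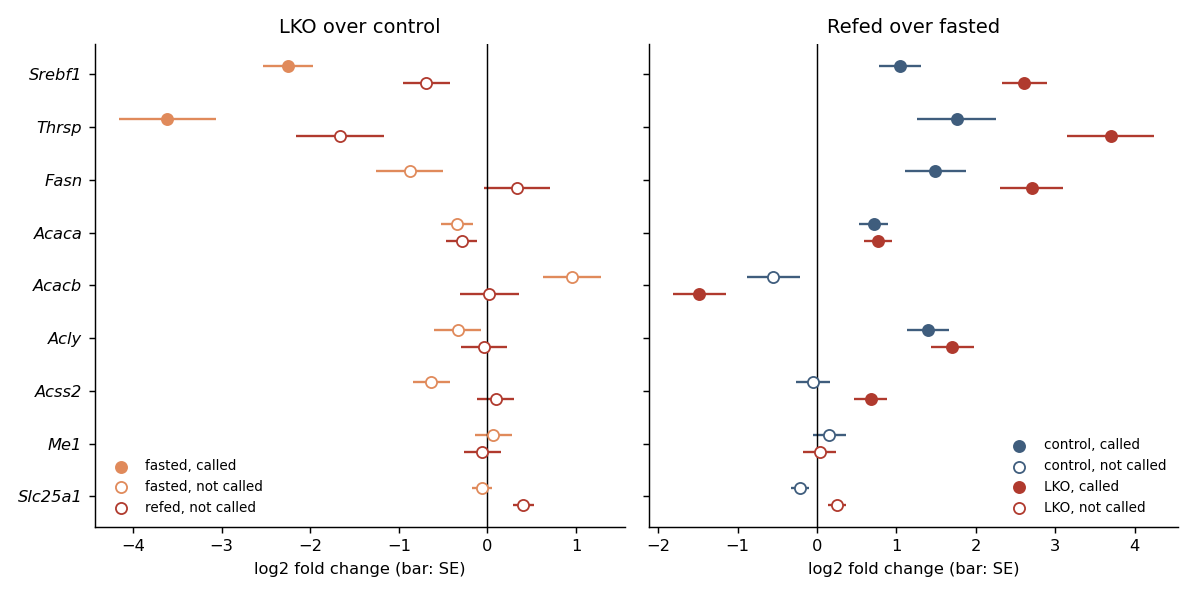
Fitted log2 fold changes of the 9 tested genes (points) with standard errors (bars), LKO over control on the left and refed over fasted on the right; filled points passed an adjusted p of 0.05. Srebf1 (−2.25) and Thrsp (−3.61) are the filled points on the left, and on the right 5 genes passed in control and 7 in LKO.

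Counted over the 9 tested genes, the fasted genotype comparison called 0 higher and 2 lower in LKO (Srebf1 and Thrsp), with 12.2% of all genes called, 5.75% higher and 6.48% lower. The groups did not overlap for 6 of the 9, all lower in LKO (Srebf1, Thrsp, Fasn, Acaca, Acly and Acss2), a pattern that 8.57% of all genes showed, with 8.3% apart in the other direction. The median log2 fold change of the 9 was −0.35 against 0.018 over all genes. The count changed with the fit: it was 5 with only the fasted groups, 4 with DESeq2 and 4 without S49, and the authors' deposited table lists 7 of the 9 at an adjusted p under 0.05. Acacb, which was higher in fasted LKO, is among the genes called by DESeq2 and by the authors (their log2 0.94, adjusted p = 0.00901). The coefficient of variation of the 9 genes had a median of 12.6% (control) and 20.6% (LKO) when fasted, and of 40.2% and 24.1% when refed. The refed genotype comparison called 0 of the 9 (3.63% of all genes, 2.28% higher and 1.35% lower), 0 by limma-voom and 2 by DESeq2. The authors' deposited table also lists 0. An unadjusted p under 0.05 was reached by 3 of the 9, and by 2672 of all 14488 genes tested. The refed groups overlapped for all 9, while 6.7% of all genes lay wholly higher and 5.03% wholly lower in LKO.

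Refeeding called 5 of the 9 in control, all higher (Srebf1, Thrsp, Fasn, Acaca and Acly), where 15.4% of all genes were called, 7.79% higher and 7.65% lower. The refeeding comparisons share their libraries with the genotype comparisons. In LKO it called 7, 6 higher (the same 5 and Acss2) and Acacb lower, where 18.1% of all genes were called, 9.28% higher and 8.78% lower. Fasted and refed libraries did not overlap for 3 genes in control and 7 in LKO, 6 of those in LKO being rises. Over all genes 10.4% in control and 10.6% in LKO lay wholly higher after refeeding, and 10.1% and 9.95% wholly lower. The control count was 3 without S40 or S49. A call in LKO alone does not show a difference between the genotypes, so that difference was tested as an interaction, which is the LKO effect in the refed state minus the LKO effect in the fasted state. It called 0 of the 9 (0.538% of all genes, 0.311% above and 0.228% below 0), with 5 at an unadjusted p under 0.05. Over all 14488 genes tested, 2397 had such a p. The estimates were 1.57 for Srebf1 (SE 0.38, adjusted p = 0.0647), 1.94 for Thrsp (SE 0.70, 0.175) and 1.21 for Fasn (SE 0.53, 0.263). For Acacb the estimate was −0.93 (SE 0.47, 0.333). Srebf1 passed with DESeq2 (adjusted p = 0.00363), limma-voom called 0, and Thrsp and Fasn passed without S49 (both 0.0388).

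Libraries of the refed control group did not rank alike across the genes. S49 was the highest of the 4 for 6 of the 9 genes (Thrsp, Fasn, Acaca, Acly, Acss2 and Slc25a1), while S48 was the highest for Srebf1. In refed LKO, S52 was the highest for Srebf1 and S53, the lowest for Srebf1, was the highest for Thrsp, Fasn, Acaca, Acss2 and Slc25a1. Per kb of gene model, the order of mean levels in fasted control was Slc25a1 (118 ± 2.74 CPM per kb, SD, n = 4), Thrsp (68.7 ± 28.3), Srebf1 (32.2 ± 4.83), Me1 (24.97 ± 4.96), Acly (9.82 ± 0.782), Acss2 (6.89 ± 0.619), Fasn (6.54 ± 1.19), Acacb (2.67 ± 0.337), Acaca (1.54 ± 0.0214) and Pnpla3 (0.0657 ± 0.0655). The ranges of Srebf1 and Me1, and of Acss2 and Fasn, overlapped there. The order also depends on the gene model lengths, which need not be those of the transcripts present in liver. In refed control Thrsp led, at 232 ± 191 CPM per kb, overlapping Slc25a1 at 101 ± 14.2. In fasted LKO Thrsp had dropped to 5.63 ± 3.06 and Srebf1 to 6.74 ± 0.943 CPM per kb, and each neighbour in the order Acly, Srebf1, Thrsp, Acacb, Acss2 and Fasn overlapped the next.

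Other targets of SREBP-1 and of lipogenic control were taken from a list of 20 genes, all tested. In fasted LKO 4 were lower and 1 higher, with 15 not called, against 6.48% of all genes lower and 5.75% higher (median log2 fold change −0.042). Pklr, the liver pyruvate kinase, fell from 158 ± 18.3 to 58.9 ± 13.3 CPM (SD, n = 4), by 1.43 on the log2 scale (adjusted p = 3.44e-04), and Mid1ip1, a partner of acetyl-CoA carboxylase and paralog of Thrsp, by 1.26 (0.0162, lost without S46). Dgat2, which makes triglyceride, fell by 0.76 (6.57e-04), and Aacs by 1.73 (0.0300), a call lost without S40, S42, S44, S46 or S47 and with limma-voom. Elovl5, the elongase of polyunsaturated fatty acids, rose by 1.77 (1.90e-06). Scd1, the stearoyl-CoA desaturase, did not pass, at 1084 ± 692 against 3146 ± 1101 CPM (−1.54, SE 0.71, adjusted p = 0.176).

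In refed LKO against refed control, 6 of these 20 genes were higher and 1 lower, against 2.28% and 1.35% of all genes (median 0.64 against −0.013 over all genes). Of the 6, Hmgcs1 (2.15), Sqle (2.64) and Lss (1.34) are enzymes of cholesterol synthesis and Tmem97 (0.73) a sterol-responsive membrane protein, while Fads2 (0.98) and Elovl5 (1.16) act on polyunsaturated fatty acids (log2 fold changes, adjusted p from 1.94e-04 to 0.0440). The Sqle call was lost in 10 of the 16 fits that left out a library, that of Lss without S48, S50, S51, S53 or S55, and that of Hmgcs1 without S48. Pklr was the lower one (−0.72, SE 0.19, adjusted p = 0.0440), a call lost in 10 of the 16 fits that left out a library. Refeeding called 5 of the 20 in control, all higher, and 15 higher and 1 lower in LKO, where 15.4% and 18.1% of all genes were called (medians 0.42 and 1.25). In LKO Pklr rose to 152 ± 17.97 CPM (log2 1.36, SE 0.19, adjusted p = 2.09e-04), Mid1ip1 rose by 2.66 (7.23e-05) and Elovl6, which lengthens palmitate, by 1.53 (0.00582). In control Pklr rose to 249 ± 79.3 CPM (log2 0.65, SE 0.19, adjusted p = 0.0267, a call lost without S40, S41, S42 or S49), with Mid1ip1 up by 1.36 (0.00761) and Elovl6 by 1.40 (0.0125). The interaction called 0 of the 20 (0.538% of all genes), with 9 at an unadjusted p under 0.05, against 2397 of all 14488 genes tested. The interaction of Pklr was 0.71, SE 0.26, adjusted p = 0.189.

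**Figure D4:**
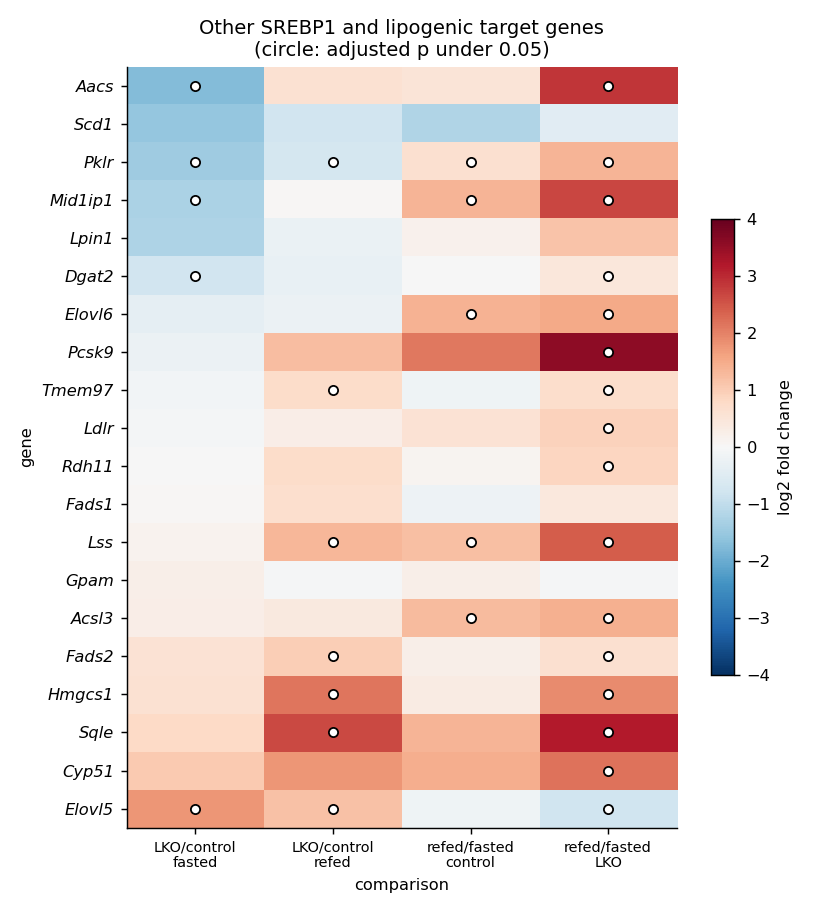
Fitted log2 fold changes of 20 other SREBP-1 and lipogenic target genes (rows, ordered by the fasted genotype effect) in 4 comparisons (columns), with white circles where the adjusted p was under 0.05. Elovl5 is the only circled rise in fasted LKO (1.77), and the LKO refeeding column carries the most circles (16 of 20).

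Genes that process SREBP-1 or control Srebf1 made a list of 24. Of these, all tested, 1 was higher and 2 lower in fasted LKO and 0 higher and 1 lower in refed LKO. These are 12.5% and 4.17% of the list, near the 12.2% and 3.63% called over all genes. Mlxipl, which encodes the carbohydrate-sensing factor ChREBP, was lower in LKO in both states, at 173 ± 12.4 against 254 ± 11.4 CPM when fasted (log2 −0.55, SE 0.083, adjusted p = 7.74e-04) and 173 ± 8.78 against 232 ± 23.4 CPM when refed (log2 −0.42, SE 0.083, adjusted p = 0.0115; SD, n = 4). Bhlhe40, a transcriptional repressor, fell by 0.81 in fasted LKO (0.00533), and Mbtps2, the second protease of SREBP processing, was higher by 0.53 (0.0420), a call lost in 10 of the 16 fits that left out a library. Nr1h3, the oxysterol receptor LXRα that drives Srebf1, did not pass in either state (−0.21 and 0.065, adjusted p = 0.142 and 0.762), nor did Scap (−0.061 and 0.29, 0.777 and 0.173). Scap, which escorts SREBP from the endoplasmic reticulum, fell on refeeding in control (log2 −0.62, SE 0.11, adjusted p = 0.00235) and was at −0.27 (0.104) in LKO. Refeeding raised Insig1, the sterol-sensing retention protein, in control (log2 1.36, SE 0.41, adjusted p = 0.0331) and in LKO (2.04, SE 0.41, adjusted p = 0.00287), the former lost without S40, S42, S43, S48 or S49. It lowered Insig2, the paralog with a fasting-induced transcript, in LKO (−1.37, SE 0.30, adjusted p = 0.00511), and in control Insig2 was at −0.012 (0.985). Insig2 means were 205 ± 54.7 CPM in fasted control and 396 ± 178 in fasted LKO, a difference that was not called. They were 203 ± 29.6 and 153 ± 67.2 CPM in refed control and refed LKO (SD, n = 4). Nr1h3 rose on refeeding in LKO (0.45, 0.00262) and was at 0.17 (0.204) in control. In all, refeeding called 5 of the 24 in control (3 higher, 2 lower) and 9 in LKO (5 higher, 4 lower), or 20.8% and 37.5% of the list against 15.4% and 18.1% of all genes.

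Of 12 listed genes for NADPH and acetyl-CoA supply, 11 were tested. Between the genotypes 0 were called in either state, where 12.2% (fasted) and 3.63% (refed) of all genes were called. An unadjusted p under 0.05 was reached by 2 of the 11 in each state. Over all 14488 genes tested, 3868 (fasted) and 2672 (refed) reached it. Refeeding raised Idh1, the cytosolic NADPH-forming isocitrate dehydrogenase, in control (0.51, adjusted p = 0.00785) and LKO (0.38, 0.0266, lost without S44, S47, S52 or S53), and lowered Pcx, pyruvate carboxylase, in control (−0.41, 0.0100). Of 14 listed genes for malonyl-CoA turnover and control of the carboxylases, all tested, 1 was higher and 1 lower in LKO in each state. Cpt1a, the targeted gene itself, was the lower one in both. With Cpt1a counted, that is 14.3% of the list in each state, near the 12.2% of all genes called when fasted and above the 3.63% when refed. Refeeding called 2 of the 14 higher and 4 lower in control, and 1 higher and 3 lower in LKO, which is 42.9% and 28.6% of the list against 15.4% and 18.1% of all genes. Mlycd, which breaks malonyl-CoA down, fell on refeeding in control (−0.51, 0.00835) and in LKO (−0.52, 0.00555) with fasted means of 170.4 ± 6.98 CPM for control and 185 ± 32.6 for LKO (SD, n = 4). Prkaa2, a catalytic subunit of the kinase AMPK that inhibits the carboxylases, rose on refeeding in control (0.72, 1.63e-04). It was higher by 0.26 in fasted LKO (0.0462), a call lost in 13 of the 16 fits that left out a library.

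Genes whose levels most resembled Srebf1 were ranked by Pearson correlation of log2 CPM over the 16 libraries, among 8990 protein-coding genes at a mean of at least 5 CPM. The ranking is a description over libraries that fall into 4 groups. Outside the 10 genes the nearest were Tmem150a (r = 0.977), Tmem185a (0.957), Sec61b (0.953), Spcs2 (0.948) and Nans (0.947). Tmem150a went from 148 ± 14.9 CPM in control to 74.4 ± 5.38 in LKO when fasted, and stood at 225 ± 31.1 and 164 ± 32.96 when refed (SD, n = 4). Sec61b encodes a subunit of the protein translocation channel of the endoplasmic reticulum and Spcs2 a subunit of signal peptidase, and both followed the same order of groups, Sec61b at 44.6 ± 2.99, 26.5 ± 2.38, 58.9 ± 3.34 and 46.5 ± 5.32 CPM. Of the lipogenic genes Thrsp ranked 21 (r = 0.919), Acaca 321 (0.793), Acly 409 (0.761), Fasn 420 (0.759) and Acss2 1105 (0.588). Me1 (−0.019) and Slc25a1 (−0.016) lay near 0, and Acacb was negative (−0.829).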

How the data were processed

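Liver RNA of 16 libraries in 4 groups was sequenced from poly-A libraries made with random hexamers and dUTP, per the labels' protocols. Each of the 4 tables that the authors deposited holds unnormalized read counts for a pair of groups. The submitters' processing notes name HISAT2 2.0.5 and the build mm39; the counting tool and its use of strand are not given in the sources used here. The authors' deposited log2 fold changes and adjusted p-values are quoted only where named. Another 64 columns with values per library were left unused. Libraries S40 to S55 took their group from the heading common to both tables that hold them.

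Joining on gene identifier gave 25803 genes, and 0 counts differed between tables. A gene missing from both tables of a library was set to 0 there (3148 genes, 0 of them tested). In R 4.3.3, 14488 genes passing filterByExpr were scaled by TMM and fitted with edgeR 4.0.16 (glmQLFit, glmQLFTest), the 4 groups forming 1 factor. Calls needed a Benjamini-Hochberg adjusted p under 0.05. Standard errors are the log2 fold change divided by the root of F, and CPM use TMM-scaled totals. Alternatives were DESeq2 1.42.0, limma-voom (limma 3.58.1), other scalings and filters, fits of only the groups compared and leaving out each library, and for called context genes they were added after their calls were seen. The edgeR step was run on simulated counts with the same spread in every gene and group (biological coefficient of variation 0.185). That run does not cover spread that differs between groups, as it did here. The genes and lists were chosen with earlier results of these data known. The text names all 10 genes, Cpt1a, members of 4 context lists that were called or have a described role, markers, and the 5 genes nearest to Srebf1 (log2 CPM with a prior count of 2). A gene of the context lists is not reported here.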

Additional observations from a re-analysis of the deposited data

Results flagged for a closer look

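In 44 groups of 4 values (the 10 genes and the Acacb to Acaca ratio in each group), 4 had a single library farther from the other 3 than a Dixon test at 95% allows, and chance gives about 1 in 20. Srebf1 in fasted LKO was 45.9 CPM in S45 against 34.6 to 36.4 in the others. Acacb in fasted control was 20.9 CPM in S43 against 26.7 to 27.8. Acss2 in fasted LKO was 26.6 CPM in S44 against 50.6 to 52.8; without S44 the fasted difference of Acss2 was log2 −0.45 (adjusted p = 0.162) and its rise on refeeding in LKO log2 0.49 (0.0921). Me1 in fasted control was 67.5 CPM in S40 against 104 to 108.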

How the results depend on the processing

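No paired analysis was possible because the count columns carry no replicate numbers. The number of the 9 genes called was 2 for the fasted genotype comparison (4 with DESeq2, 5 with only the fasted groups) and 0 for the refed one (2 with DESeq2). It was 5 and 7 for refeeding in control and LKO, and 0 for the interaction (1 with DESeq2). Leaving out 1 library gave 2 to 4, 0 to 1, 3 to 5, 6 to 7 and 0 to 2 in that order. Signs turned for values near 0: the refed genotype difference of Acly was 0.096 with limma-voom and −0.24 to 0.43 when 1 library was left out. Leave-one-out ranges that cross 0 were −0.089 to 0.23 (Me1, fasted genotype), −0.17 to 0.032 (Me1, refed genotype), −0.13 to 0.18 (Me1, refeeding in LKO) and −0.29 to 0.030 (Me1, interaction). They were −0.16 to 0.23 (Acacb, refed genotype), −0.082 to 0.30 (Acss2, refed genotype), −0.25 to 0.050 (Acss2, refeeding in control) and −0.072 to 0.34 (Acaca, interaction). The cause was not tested. The Acacb to Acaca log2 differences were 0.99 to 1.38 (fasted genotype), 0.039 to 0.60 (refed genotype), −1.59 to −1.07 (refeeding in control) and −2.45 to −1.99 (refeeding in LKO) with 1 library left out, where 3 against 4 libraries allow no exact p under 0.0571. Over all genes, 1772 were called for the fasted genotype (1048 without S44), 526 for the refed genotype (197 without S48, 225 without S55, 293 without S54, 300 without S50 or S53, 924 with DESeq2) and 2238 for refeeding in control (1220 without S40, 1365 without S50). The interaction called 78, from 8 without S48 to 282 without S49, 458 with DESeq2 and 195 when genes under a mean of 5 CPM were dropped. Low counts left Pnpla3 without a usable value.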

Other observations

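Summed CPM of the marker lists not given above, as ranges in fasted control, fasted LKO, refed control and refed LKO, were 212 to 405, 268 to 388, 185 to 736 and 193 to 291 for 7 Kupffer cell and macrophage genes and 154 to 276, 175 to 280.4, 186 to 229 and 162 to 221 for 7 stellate cell and fibroblast genes. They were 112 to 142, 107 to 134, 80.98 to 142 and 92.5 to 131 for 5 endothelial genes and 4.14 to 8.59, 6.05 to 45.9, 5.36 to 7.92 and 7.15 to 9.26 for 4 cholangiocyte genes. The highest cholangiocyte sum was that of S44, against 6.05, 7.34 and 10.9 CPM in S45, S46 and S47. The highest macrophage sum was that of S49, against 457, 282 and 185 CPM in S48, S50 and S51. The part of either in the results above was not tested. The 4 muscle genes summed to at most 0.433 CPM in any library. Of the 4 exocrine pancreas genes only Cela1 was in the tables, at 20.6 to 34.3, 11.6 to 16.2, 21.04 to 32.5 and 12.9 to 14.4 CPM.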
